A study of Mus musculus with 21 samples.

Results

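The responses of mouse embryonic stem cells to removal of RACK1 and to removal of RPLP1 were compared gene by gene, in mRNA and in ribosome footprints. The genes compared were those listed under the same transcript identifier in both lines' tables, leaving out gene symbols converted to dates and those listed more than once. This left 12117 genes, which is 93.9% of the 12905 genes of the RACK1 table and 98.7% of the 12274 genes of the RPLP1 table, out of 13253 genes in any of the series' 3 tables. Both lines are E14 embryonic stem cells of the genotypes RACK1-AID/RPS26-Tir1 and RPLP1-AID/RPS26-Tir1: the named protein carries an auxin-inducible degron, and the plant receptor Tir1, named together with the ribosomal protein RPS26, is part of both lines. Cells were treated for 8 h with the auxin IAA, which makes Tir1 mark the degron for destruction, or with DMSO as the vehicle. Each line has 3 mRNA samples after IAA, 3 mRNA samples after DMSO and 1 footprint sample in which all replicates of both treatments were combined, so the RACK1 and RPLP1 comparisons share no control sample. The labels do not say whether replicates were separate cultures or each line a single clone, and no line without a degron was analysed here, so IAA and removal cannot be told apart within a line. Another line of the same design, RPLP0-AID/RPS26-Tir1, is used only as a value set beside the others.

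RACK1 sits near the mRNA exit of the small ribosomal subunit, on its head, and as a scaffold binds kinases and factors that act on stalled ribosomes. RPLP1 forms, with RPLP2 and RPLP0, the stalk of the large subunit, which recruits the elongation factors that drive each step of translation. Ribosome profiling sequences the mRNA pieces that ribosomes protect, so the footprints of a gene follow both how much of its mRNA there is and how densely ribosomes occupy it. A gene can thus change in mRNA without changing in footprints, and the reverse.

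The values are the authors' own log2 fold changes and false discovery rates (FDR, an adjusted p-value) per gene. No value per sample was used, so the depth is unknown, and a standard error (SE) is given as implied by each fold change and its FDR. A positive log2 change is read as higher after removal. All 11 markers of embryonic stem cells looked for, among them Pou5f1, Sox2 and Nanog, were listed in both tables, while 4 of 8 fibroblast markers (not Col3a1, Lum, Dcn or Postn) and 2 of 4 primitive endoderm markers (not Sox17 or Foxa2) were among the joined genes. Median implied SEs were 0.158 for RACK1 mRNA and 0.114 for RPLP1 mRNA, and 0.0938 for RACK1 footprints and 0.0865 for RPLP1 footprints, on the log2 scale.

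Over all genes, mRNA changes ran weakly in opposite directions in the lines, and footprint changes ran weakly in the same direction. The Spearman correlation between the lines was -0.15 for mRNA and 0.23 for footprints over the 12117 genes, given as a description since genes are not independent replicates. Among the 4037 genes whose implied SE was below the median in both lines and both assays, the values were -0.20 for mRNA and 0.30 for footprints. RACK1 mRNA changes had the opposite sign to RPLP1 mRNA changes for 56% of genes, while footprints had the same sign for 58.1%. Footprints of the lines therefore agreed only in part, by rank as well as by sign. Both assays were made on bulk cells, in which fewer cells of a kind and less RNA per cell cannot be told apart. Within each line, mRNA and footprint changes correlated at 0.13 after RACK1 removal and at 0.52 after RPLP1 removal. RACK1 footprints correlated with RPLP1 mRNA at 0.22, above their correlation with RACK1's own mRNA changes; the difference between those values was not tested. With the RPLP0 line set beside them over the 11855 genes in all 3 tables, RACK1 and RPLP0 correlated at -0.01 for mRNA and 0.0026 for footprints, and RPLP0 and RPLP1 at 0.09 and 0.02, so the RACK1 and RPLP1 values of -0.15 and 0.24 lay farther from 0 than those of either other pair.

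**Figure D1:**
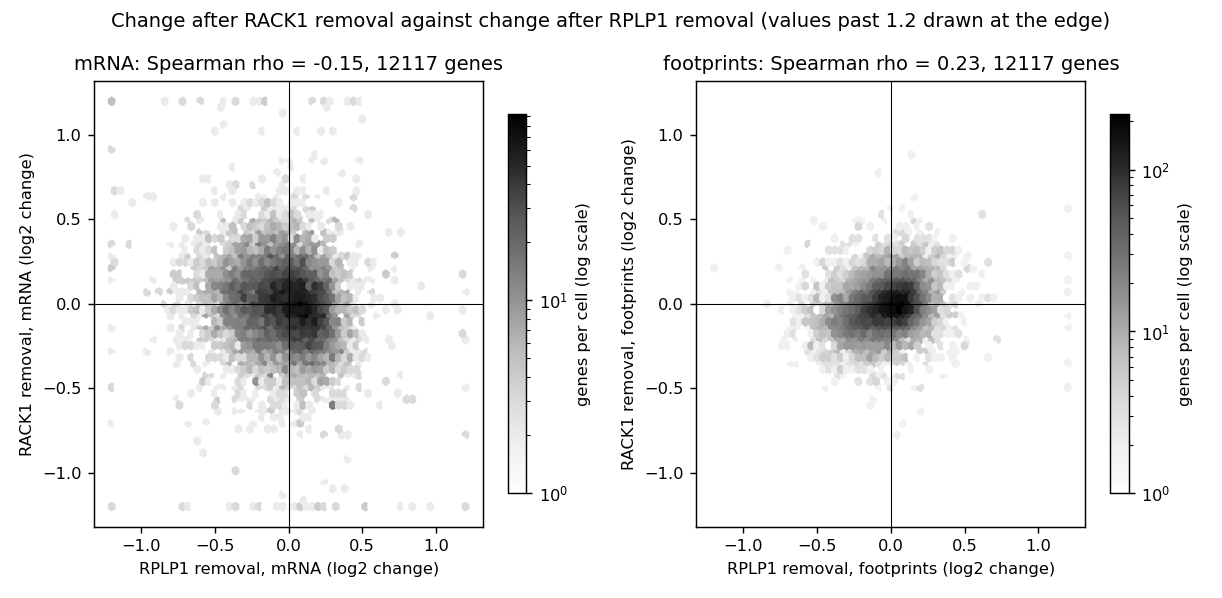
Log2 change after RACK1 removal (vertical axis) against log2 change after RPLP1 removal (horizontal axis), for mRNA on the left and footprints on the right; the shade gives the number of genes per cell on a log scale, and values past the frame are drawn at its edge. The mRNA cloud leans down to the right (Spearman rho = -0.15) and the footprint cloud leans up to the right (0.23).

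**Figure D2:**
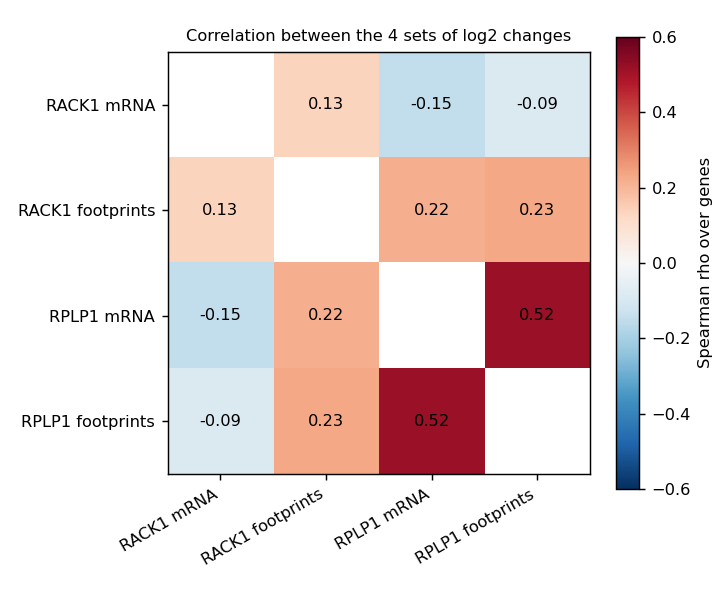
Spearman correlation over 12117 genes between the 4 sets of log2 changes, red above 0 and blue below 0. RPLP1 mRNA and RPLP1 footprints share the highest value, 0.52, and the RACK1 mRNA changes have the 2 values below 0, -0.15 with RPLP1 mRNA and -0.09 with RPLP1 footprints.

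The trend held along the range of RPLP1 changes rather than at its ends alone. With genes ordered by RPLP1 mRNA change into 10 groups, the median RACK1 mRNA change was 0.06 in the group lowest after RPLP1 removal, whose RPLP1 median was -0.56, and -0.08 in the highest, whose RPLP1 median was 0.36. RACK1 mRNA was above 0 for 57.8% of genes in the lowest group and for 40.3% in the highest. For footprints the order was reversed: the median RACK1 footprint change was -0.08 in the group with the lowest RPLP1 footprints and 0.03 in the group with the highest, and 29.2% and 57.3% of genes had RACK1 footprints above 0. These medians are small beside the spread of single genes, since the quartiles of RACK1 mRNA in the lowest group were -0.15 and 0.25.

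**Figure D3:**
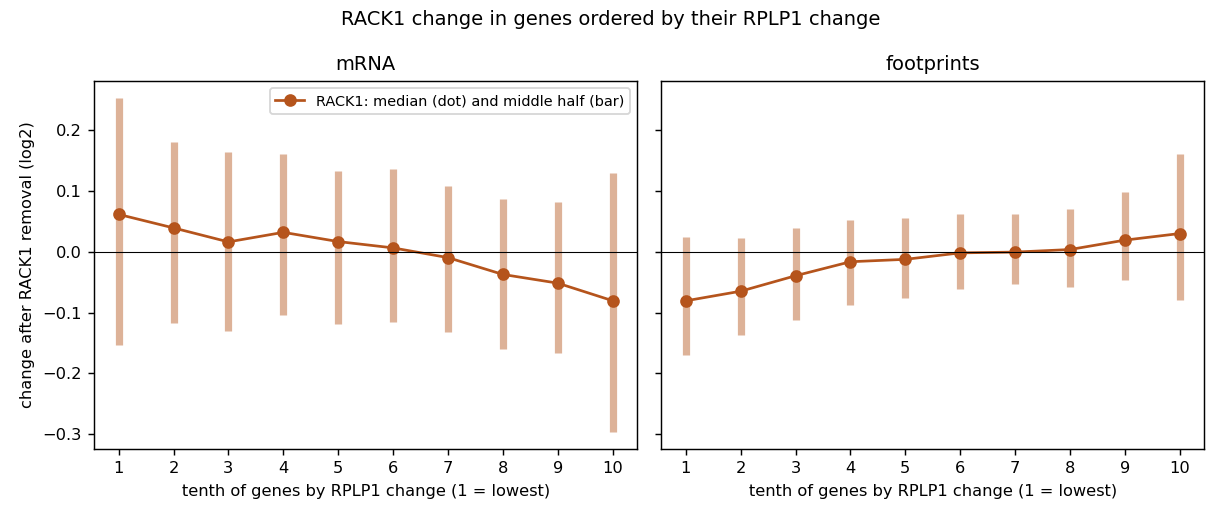
Log2 change after RACK1 removal (vertical axis) in 10 groups of about 1212 genes ordered by their change after RPLP1 removal (horizontal axis, group 1 lowest), for mRNA on the left and footprints on the right; dots are medians and bars run from the lower to the upper quartile. The mRNA medians run down from 0.06 to -0.08 over the groups and the footprint medians run up from -0.08 to 0.03.

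Few genes passed the authors' FDR of 0.05 after RACK1 removal and many after RPLP1 removal. In mRNA, 59 genes passed after RACK1 removal (0.487% of those tested; 22 higher, 0.182%, and 37 lower, 0.305%) and 1734 after RPLP1 removal (14.3%; 684 higher, 5.64%, and 1050 lower, 8.67%). In footprints, 4 passed after RACK1 removal (0.033%; 3 higher, 0.0248%, and 1 lower, 0.00825%) and 1025 after RPLP1 removal (8.46%; 430 higher, 3.55%, and 595 lower, 4.91%). The mRNA calls shared 23 genes, which is 39% of the RACK1 calls and 1.33% of the RPLP1 calls, and 15 of these 23 had opposite signs. The footprint calls shared 1 gene. Of the 595 genes whose footprints fell after RPLP1 removal, 528 (88.7%) also had a RACK1 footprint change below 0. Of the 430 that rose, 221 (51.4%) had a RACK1 change above 0. For comparison, 44.9% of all genes had RACK1 footprints above 0, so the sharing of sign stood farther above all genes for those that fell after RPLP1 removal than for those that rose.

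Responses differed between the lines for many mRNAs and for few footprints. The RACK1 change minus the RPLP1 change was tested against the implied SEs in an approximate two-sided z-test, with Benjamini-Hochberg adjustment over all 12117 genes. In mRNA, 963 genes passed at 0.05 (7.95%), 600 with the RACK1 change higher (4.95%) and 363 with it lower (3%). In footprints, 13 genes passed (0.107%), 3 with the RACK1 change higher (0.0248%) and 10 with it lower (0.0825%). Footprint SEs were smaller, but footprint changes also spread less over genes. Their standard deviations were 0.16 for RACK1 and 0.22 for RPLP1, against 0.32 and 0.31 in mRNA. The counts of the 2 assays are therefore a description and not a comparison. Among the 5425 genes with implied SEs below the median in both lines, 375 mRNAs were higher and 354 lower in RACK1, a more even split. At an unadjusted p below 0.05 there were 2672 mRNA differences and 1277 footprint differences. With the authors' FDR taken in place of the p-value it implies, 2 mRNA differences passed with RACK1 higher and 4 with RACK1 lower, and footprint differences numbered 0 in each direction, so the counts rest on undoing the adjustment. The labels do not say how footprint FDRs were obtained from a combined sample, and which spread they measure is unknown.

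Of the 963 mRNAs that differed, 569 had a RACK1 change above 0 and an RPLP1 change below 0, and 353 the reverse. Selection on a large difference favours opposite signs, so these signs are partly built in. Over all genes, 56% had opposite mRNA signs. The median changes of the 569 genes were 0.22 in RACK1 mRNA and -0.38 in RPLP1 mRNA, against -0.05 in RACK1 footprints and -0.20 in RPLP1 footprints. Their footprints thus lay below 0 in both lines, and 31.1% of them had RACK1 footprints above 0. The 353 genes had median mRNA changes of -0.29 in RACK1 and 0.24 in RPLP1, against -0.02 and 0.10 in footprints. The median difference over the 600 genes higher in RACK1 was 0.61 in mRNA and 0.15 in footprints, and over the 363 lower genes -0.53 in mRNA and -0.11 in footprints. These genes were selected on the mRNA difference and footprint changes spread less over all genes, so the sizes in the 2 assays are a description and not a comparison. The sign of the footprint difference matched the mRNA difference for 87% of the 600 genes, 81.3% of the 363 and 63.8% of all genes. In the RPLP0 line the mRNA medians of the same 2 groups were -0.02 and 0.01.

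Of the 15 genes called in both lines with opposite signs, 5 had RACK1 mRNA higher and RPLP1 mRNA lower, and 10 the reverse. Klf2, a transcription factor of the naive pluripotency network that growth signals also induce, rose by 0.82 after RACK1 removal (FDR 1.72e-06) and fell by 0.37 after RPLP1 removal (FDR 0.00132) in the authors' deposited tables, a difference of 1.19 (SE 0.16, adjusted p = 3.3e-10 in the z-test). Its footprints, 0.20 after RACK1 removal and -0.13 after RPLP1 removal in the authors' deposited tables, did not pass in either line. The orphan nuclear receptor Nr2f6 had mRNA changes of 0.64 and -0.46, the membrane-traffic GTPase Arf6 0.63 and -0.20, the kinase Pim3 0.47 and -0.22, and the retinoic acid receptor Rara 0.47 and -0.32 after RACK1 and RPLP1 removal in the authors' deposited tables, each called in both lines. All 5 passed the difference test, with differences of 0.70 to 1.19. That test uses the same changes and FDRs as the calls, so with opposite signs passing it is largely built in.

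In the other direction Kxd1, a subunit of a complex that positions lysosomes, fell by 2.34 after RACK1 removal (FDR 2.98e-14) and rose by 0.30 after RPLP1 removal (FDR 0.0111) in the authors' deposited tables. That difference was -2.64 (SE 0.28, adjusted p = 1.93e-16 in the z-test), while Kxd1 footprints changed by 0.15 and -0.06 in the authors' deposited tables, neither called. The mitochondrially encoded complex I subunit mt-Nd3 changed by -1.05 and 0.26, the meiotic recombinase Dmc1 by -0.95 and 0.53, the mitochondrial ribosomal protein Mrps18c by -0.80 and 0.48, the small ATP synthase subunit Usmg5 by -0.57 and 0.30, the ribosomal protein Rps24 by -0.415 and 0.22 and the nucleolar chaperone Npm1 by -0.41 and 0.29 after RACK1 and RPLP1 removal in the authors' deposited tables. The 10 genes of this direction include 3 predicted genes that are not named here. Rps24, Npm1 and mt-Nd3 have near-identical copies elsewhere in the genome, so their values depend on how reads were shared out, which no source used here states.

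**Figure D4:**
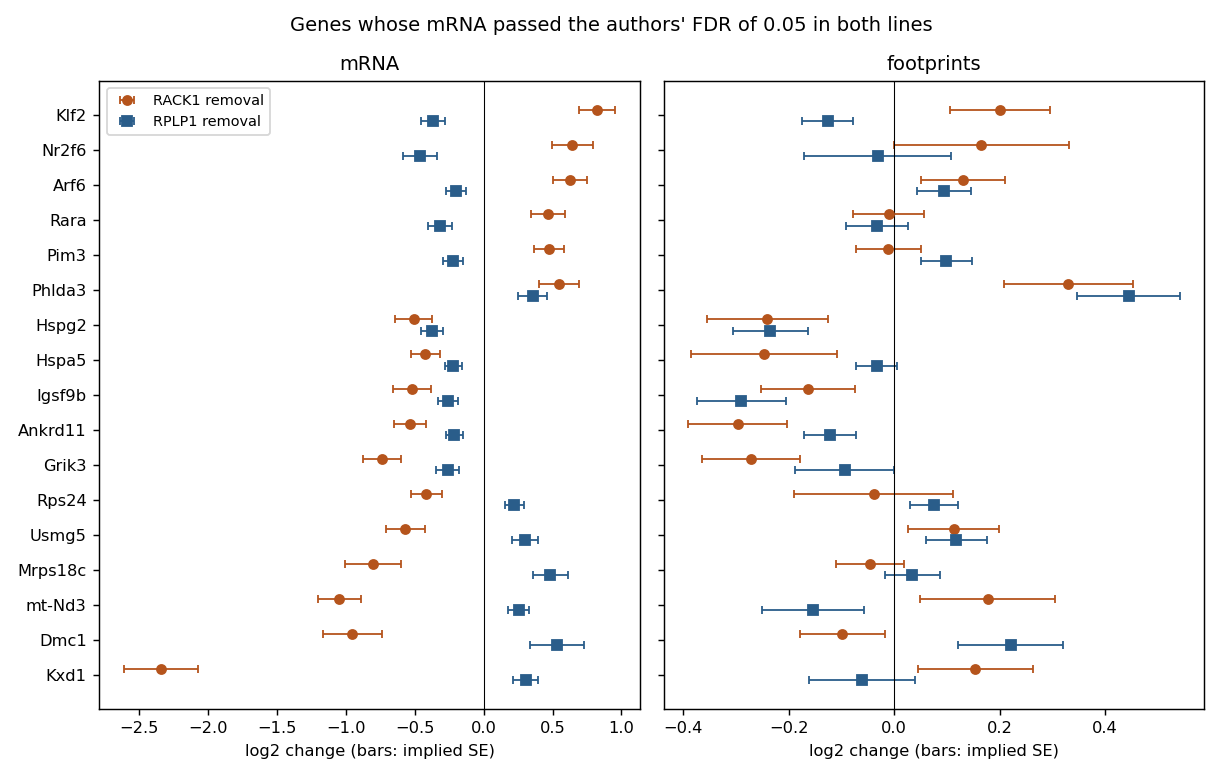
Log2 changes of 17 genes whose mRNA passed the authors' FDR of 0.05 in both lines, mRNA on the left and footprints on the right, with RACK1 removal as circles, RPLP1 removal as squares and bars of 1 implied SE. The 5 genes from Klf2 to Pim3 have RACK1 mRNA above 0 and RPLP1 mRNA below 0, the 6 genes from Rps24 to Kxd1 the reverse, and the 6 between have the same sign in both lines; footprint changes of the first and last groups lie between -0.15 and 0.22.

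The 8 mRNAs called in both lines with the same sign were 1 that rose and 7 that fell. Phlda3, a p53 target that restrains Akt, rose by 0.55 after RACK1 removal and by 0.36 after RPLP1 removal in the authors' deposited tables, with footprint changes of 0.33 and 0.44. Those that fell include the endoplasmic reticulum chaperone Hspa5 (-0.42 and -0.22), the basement membrane proteoglycan Hspg2 (-0.51 and -0.37) and the glutamate receptor Grik3 (-0.74 and -0.26), RACK1 before RPLP1 in the authors' deposited tables. The membrane proteins Igsf9b (-0.52 and -0.26) and Lmtk2 (-0.45 and -0.33) and the chromatin regulator Ankrd11 (-0.54 and -0.21) fell as well, in the same order and tables. Lmtk2 falls outside the naming rule and was named after its values were seen. Of these, Grik3 also differed between the lines (-0.48, SE 0.16, adjusted p = 0.0414 in the z-test on the authors' deposited tables). Pck2, the mitochondrial enzyme that makes phosphoenolpyruvate, was the 1 gene whose footprints were called in both lines, falling by 0.46 after RACK1 removal (FDR 0.0228) and by 0.22 after RPLP1 removal (FDR 0.0325) in the authors' deposited tables. Pck2 mRNA changed by -0.21 and -0.57 in the authors' deposited tables, called after RPLP1 removal.

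Among the other mRNAs with the strongest differences, the RACK1 change was higher for Pigs, a subunit of the enzyme that attaches lipid anchors to proteins, for the stem cell chromatin protein Utf1, for the AP-1 factor Jund, for the growth-induced factor Egr1 and for the secreted neurexin ligand Nxph4. Egr1 rose by 1.19 after RACK1 removal and had 0.17 after RPLP1 removal, and Nxph4 had 0.33 after RACK1 removal and fell by 0.97 after RPLP1 removal, in the authors' deposited tables. The differences of these 5 genes ran from 0.74 (Utf1) to 1.30 (Nxph4). The RACK1 change was lower for the mitochondrial leucyl-tRNA synthetase Lars2 (-2.23, SE 0.25), for Zyg11a, a substrate receptor of a ubiquitin ligase (-1.57, SE 0.27), for the zinc finger gene Zfp988 (-0.79, SE 0.15) and for the Hsp70 partner Dnaja1 (-0.73, SE 0.13). Lars2 mRNA changed by -2.19 after RACK1 removal and by 0.04 after RPLP1 removal in the authors' deposited tables, so its difference lay on the RACK1 side. Dnaja1 mRNA changed by -0.265 after RACK1 removal and rose by 0.47 after RPLP1 removal in the authors' deposited tables, so its difference lay mainly on the RPLP1 side.

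The 13 genes whose footprints differed were few enough to name. Footprints of Ifrd1, a co-regulator whose mRNA carries an upstream open reading frame, rose by 0.75 after RACK1 removal (FDR 0.000382) and changed by 0.01 after RPLP1 removal in the authors' deposited tables (difference 0.74, SE 0.15, adjusted p = 0.00576 in the z-test). The Notch ligand Dll1 differed in both assays: footprints had 0.31 after RACK1 removal and fell by 0.72 after RPLP1 removal, and mRNA rose by 0.76 after RACK1 removal and had -0.66 after RPLP1 removal, in the authors' deposited tables. Acsf2, an acyl-CoA synthetase, had footprint changes of 0.15 after RACK1 removal and -0.31 after RPLP1 removal in the authors' deposited tables. The 10 genes lower in RACK1 all had RACK1 footprints below 0 and RPLP1 footprints above 0: Zfp648 (difference -3.25, SE 0.67), Mat2a (-0.57, SE 0.13), Erbin (-0.55, SE 0.12), Enox1 (-0.52, SE 0.11), Ccng1 (-0.52, SE 0.12), Wsb1 (-0.47, SE 0.11), Dido1 (-0.47, SE 0.11), Taok1 (-0.43, SE 0.10), Zfp518a (-0.39, SE 0.09) and Chordc1 (-0.38, SE 0.09). Mat2a makes the methyl donor S-adenosylmethionine, Ccng1 is a p53 target, Taok1 is a stress kinase and Chordc1 is a partner of Hsp90. The mRNA difference also passed for 5 of these 10, Mat2a, Taok1, Chordc1, Ccng1 and Dido1. Ccng1 and Dido1 fall outside the 8 genes of each sign that the naming rule takes and were named after their values were seen.

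Footprints relative to mRNA, the footprint change minus the mRNA change, differed between the lines for 40 genes (0.33%), 21 higher in RACK1 (0.173%) and 19 lower (0.157%). All 40 had an mRNA difference of the opposite sign, past the test in 39; the tested value subtracts the mRNA difference, so such signs are built into it. The footprint difference by itself passed the z-test for 0 of the 40; at an unadjusted p below 0.05 there were 1277 footprint differences and 1216 relative differences among all genes. For the 21 genes higher in RACK1 the median difference was -0.87 in mRNA and 0.16 in footprints, and for the 19 lower genes 0.70 and -0.09. The genes higher in RACK1 include Kxd1 (2.86, SE 0.32), Lars2 (2.62, SE 0.28), mt-Nd3 (1.63, SE 0.24) and Zyg11a (1.54, SE 0.29), and the lower ones include Klf2 (-0.86, SE 0.19), Utf1 (-0.86, SE 0.16), Pim3 (-0.81, SE 0.15), Arf6 (-0.79, SE 0.17) and Rara (-0.76, SE 0.18). The exception among the 40 is the poly(A)-binding protein Pabpc1, named after its values were seen, whose mRNA difference of 0.18 did not pass. Pabpc1 footprints changed by -0.50 after RACK1 removal (FDR 0.46) and rose by 0.19 after RPLP1 removal (FDR 0.0109) in the authors' deposited tables. The count assumes independent errors in the assays: with an error correlation of 0.5, 336 genes passed with RACK1 higher and 466 with RACK1 lower.

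Gene lists described by their medians followed the same division in mRNA more than in footprints. Of 46 lists with 10 or more joined genes, mRNA medians had opposite signs in 33, with RACK1 above 0 in 13 and RPLP1 above 0 in 20. Footprint medians had opposite signs in 20 lists, all with RACK1 below 0 and RPLP1 above 0, the same sign below 0 in 17 and above 0 in 9. Gene by gene within lists, the mRNA correlation between the lines was below 0 in 36 of the 46 lists and the footprint correlation above 0 in 29. Over all 12117 genes the medians were 0.0012 for RACK1 mRNA, -0.0058 for RPLP1 mRNA, -0.014 for RACK1 footprints and -0.0056 for RPLP1 footprints. Shares of all genes to set beside the list counts are 4.95% higher and 3% lower in RACK1 for the mRNA difference test, and, after RPLP1 removal, 5.64% higher and 8.67% lower in mRNA and 3.55% higher and 4.91% lower in footprints. The lists were chosen with results of these data known and were not tested. Some share members, such as the mitochondrial carriers within the solute carriers, so counts of lists are not counts of separate observations.

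**Figure D5:**
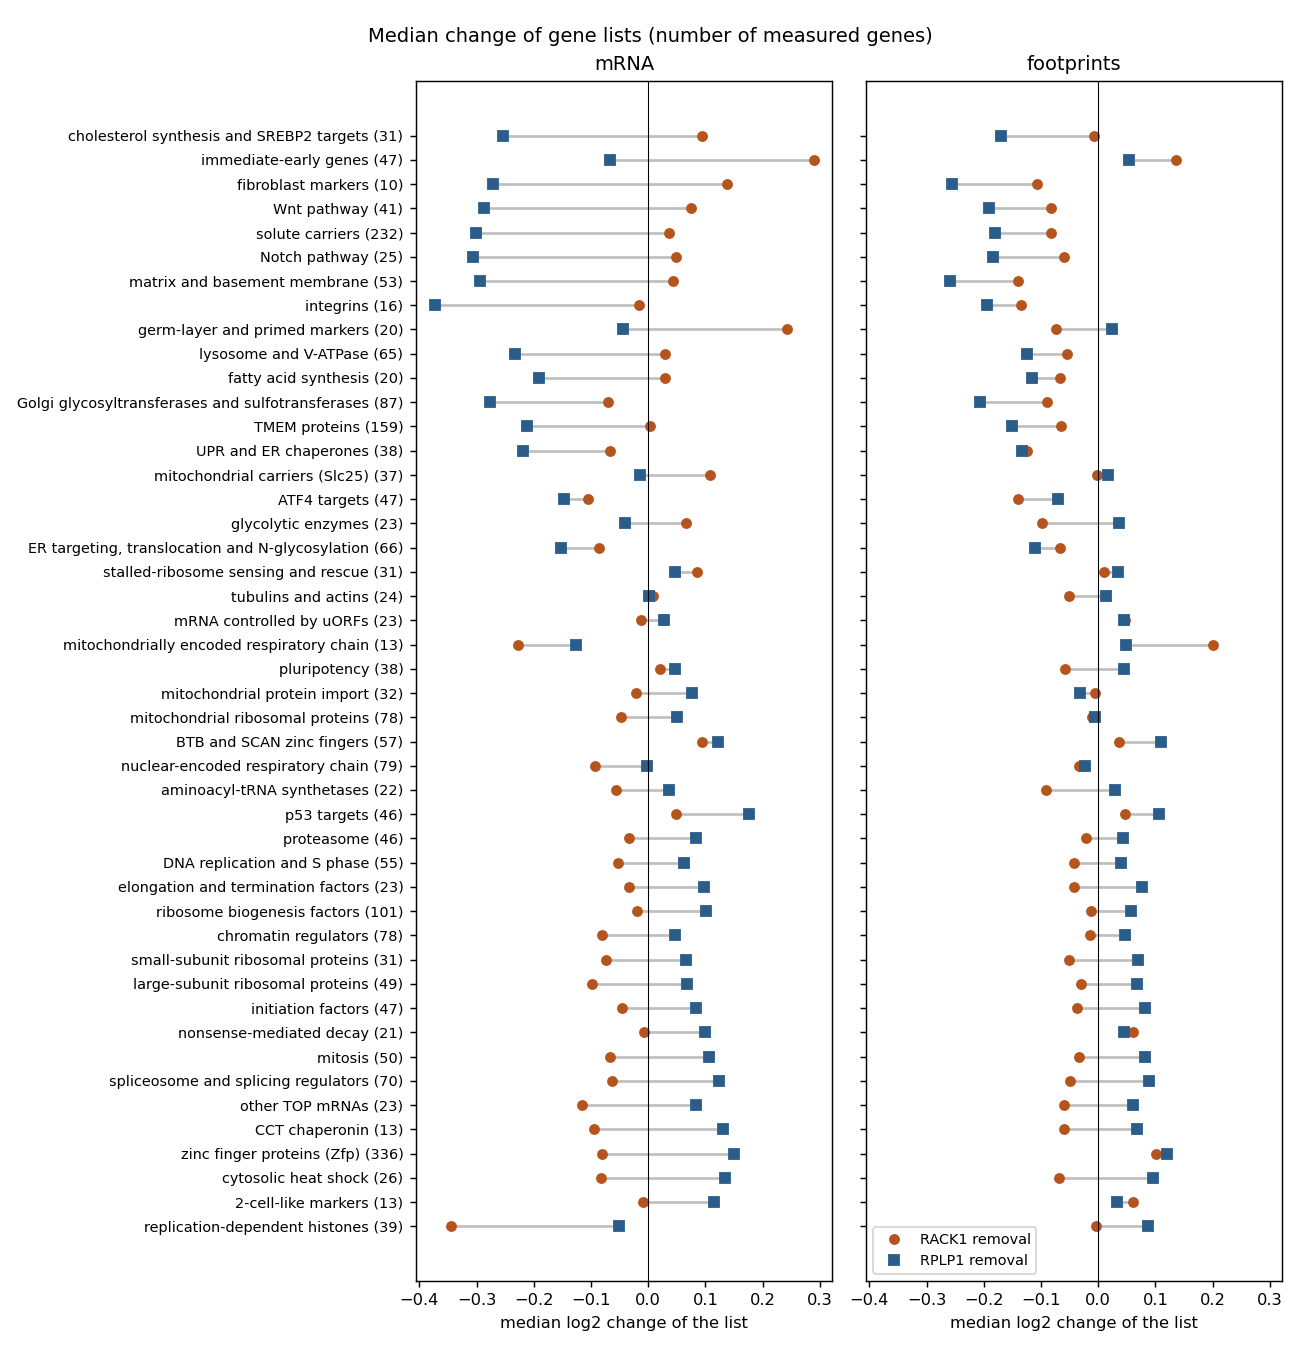
Median log2 change (horizontal axis) of 46 gene lists, with the number of joined genes in parentheses, in mRNA on the left and footprints on the right; circles are RACK1 removal, squares RPLP1 removal, and lists are ordered by the median mRNA difference. Lists of membrane, secreted and lipid genes near the top have RPLP1 mRNA far below RACK1 mRNA but both lines below 0 in footprints. Splicing, mitosis and other TOP genes toward the bottom have RACK1 below and RPLP1 above 0 in both assays. Other lists there do not: replication-dependent histones, the lowest, have both mRNA medians below 0. The 2-cell-like markers and Zfp genes have both footprint medians above 0.

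Immediate-early genes, which growth signals switch on within minutes, were among the lists whose mRNA differed with the RACK1 side high. The shares with RACK1 higher were as large or larger in the cholesterol (41.9%) and Notch (28%) lists. Of 47 joined immediate-early genes, 13 passed the mRNA difference test with RACK1 higher (27.7%, against 4.95% of all genes). With RACK1 lower, 1 passed, the Ras inhibitor Spred1 (2.13%, against 3%). The median mRNA change was 0.29 after RACK1 removal and -0.07 after RPLP1 removal, and the median footprint change 0.14 and 0.05, so footprint medians were above 0 in both lines; among members with implied SEs below the median in both lines, called precise members here, the RPLP1 mRNA median was 0.0013. Called members after RACK1 removal numbered 6 in mRNA (0.182% of all genes were called higher) and 3 in footprints (0.0248%), all higher. After RPLP1 removal 3 mRNAs rose (6.38%, against 5.64%) and 2 fell (4.26%, against 8.67%), and 4 footprint values rose (8.51%, against 3.55%), so the RPLP1 mRNA shares were near or below those of all genes. Dusp1, the phosphatase that switches off MAP kinases, rose by 0.74 after RACK1 removal (FDR 0.00378) and had -0.08 after RPLP1 removal in the authors' deposited tables (difference 0.82, SE 0.19, adjusted p = 0.00153 in the z-test). Jund had 0.38 after RACK1 removal and fell by 0.47 after RPLP1 removal in the authors' deposited tables. Egr1 footprints rose by 0.87 after RACK1 removal and had 0.15 after RPLP1 removal in the authors' deposited tables, a difference of 0.72 (SE 0.18, adjusted p = 0.051 in the z-test) that did not pass.

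Promoters of these genes are shown because 2 textbook sites of growth signalling can be looked for in them: the CArG box, which serum response factor binds, and TGACGTCA, the cAMP response element. Promoter windows of 250 bases before to 50 after the start, from RefSeq on GRCm38.p6, matched 9724 of the 12117 genes and 37 of the 47 immediate-early genes, and both strands were searched. The CArG box was in 3 of 37 windows (8.11%; Dusp5, Srf and Zfp36) against 1.45% of all windows, and TGACGTCA in 3 of 37 (8.11%; Btg2, Dusp1 and Maff) against 3.69%. Neither motif is contained in the other. The 250 bases before the start are given for a gene with each, and for a member with TGACGTCA but another pattern, 5′ to 3′ on the gene's strand with the motif in capitals: Dusp1 at chr17:26508473-26508722 (minus strand), Btg2 at chr1:134079156-134079405 (minus strand) and Zfp36 at chr7:28379229-28379478 (minus strand).
Dusp1: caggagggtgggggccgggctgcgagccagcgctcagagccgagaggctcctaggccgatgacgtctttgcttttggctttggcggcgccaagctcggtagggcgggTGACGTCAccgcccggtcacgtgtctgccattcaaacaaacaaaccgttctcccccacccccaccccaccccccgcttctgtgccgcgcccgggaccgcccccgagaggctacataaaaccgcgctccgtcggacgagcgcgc
Btg2: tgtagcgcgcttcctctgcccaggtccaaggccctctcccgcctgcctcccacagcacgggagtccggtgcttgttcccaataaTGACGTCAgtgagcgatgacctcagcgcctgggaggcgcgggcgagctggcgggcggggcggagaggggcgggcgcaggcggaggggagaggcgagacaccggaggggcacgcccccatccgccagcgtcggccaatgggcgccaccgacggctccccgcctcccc
Zfp36: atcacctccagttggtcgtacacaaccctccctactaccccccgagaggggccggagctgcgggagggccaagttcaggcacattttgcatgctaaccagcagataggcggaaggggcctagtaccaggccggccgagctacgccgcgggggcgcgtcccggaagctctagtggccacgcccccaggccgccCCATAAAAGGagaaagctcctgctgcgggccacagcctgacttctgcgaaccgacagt
Btg2, an antiproliferative gene that p53 also induces, had an mRNA change of 0.14 after RACK1 removal and rose by 0.57 after RPLP1 removal (FDR 0.00131) in the authors' deposited tables, so a shared motif went with different patterns in Dusp1 and Btg2. Zfp36, which speeds the decay of AU-rich mRNAs, had mRNA changes of 0.55 after RACK1 removal and -0.34 after RPLP1 removal in the authors' deposited tables, neither called (difference 0.89, SE 0.33, adjusted p = 0.0721 in the z-test). Spred1, Btg2 and Zfp36 fall outside the naming rule and were named after their values were seen.

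Lists of solute carriers, TMEM proteins, matrix and lysosome genes had mRNA medians near 0 after RACK1 removal and below 0 after RPLP1 removal, and footprint medians below 0 in both lines. Among 232 solute carriers, which move nutrients and ions across membranes, the median mRNA change was 0.04 after RACK1 removal and -0.30 after RPLP1 removal, and the median footprint change -0.08 and -0.18. The mRNA difference passed for 33 with RACK1 higher (14.2%, against 4.95% of all genes) and for 1 with RACK1 lower (0.431%, against 3%); mRNA signs were opposite for 60.3% of the carriers and footprint signs the same for 70.7%. Slc3a2, the heavy chain of amino acid exchangers, had 0.14 after RACK1 removal and fell by 0.45 after RPLP1 removal in mRNA, against -0.15 and a fall of 0.29 in footprints, in the authors' deposited tables. Among 53 matrix and basement membrane genes the mRNA medians were 0.04 after RACK1 removal and -0.29 after RPLP1 removal, the footprint medians -0.14 and -0.26, and 84.9% had the same footprint sign. Of these, 11 passed the mRNA difference test, all with RACK1 higher (20.8%, against 4.95%), among them the collagen Col18a1 (0.73, SE 0.14), the laminin chain Lamb1 (0.64, SE 0.14), the collagen-modifying enzyme Plod3 (0.58, SE 0.14) and the nidogen Nid2 (0.55, SE 0.13). Lamb1 mRNA had 0.27 after RACK1 removal and fell by 0.37 after RPLP1 removal, and its footprints had -0.09 and fell by 0.24, in the authors' deposited tables.

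The same arrangement was seen in 159 TMEM proteins (mRNA medians 0.00 after RACK1 and -0.21 after RPLP1 removal, footprints -0.06 and -0.15, with 10.1% higher and 0.629% lower in the difference test, against 4.95% and 3% of all genes, and a RACK1 mRNA median of -0.03 among precise members) and in 65 lysosome and V-ATPase genes (0.03 and -0.23, then -0.05 and -0.13, with 12.3% higher). Golgi glycosyltransferases and sulfotransferases (87 genes) and the endoplasmic reticulum targeting and N-glycosylation machinery (66 genes) were below 0 in both lines and both assays, with RACK1 closer to 0: mRNA medians were -0.07 and -0.28 in the Golgi list and -0.09 and -0.15 in the targeting list. Unfolded protein response genes (38) had mRNA medians of -0.07 after RACK1 removal and -0.22 after RPLP1 removal and nearly equal footprint medians of -0.12 and -0.13. Herpud1, a degradation factor of that response, had an mRNA change of -0.15 after RACK1 removal and fell by 1.18 after RPLP1 removal in the authors' deposited tables, and Wfs1 of the endoplasmic reticulum membrane had 0.30 and fell by 0.70. Both passed the mRNA difference test (1.03, SE 0.27, and 0.999, SE 0.20).

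Markers of other cells that make matrix or basement membrane were looked at beside these lists. The 10 joined fibroblast genes of the wider list had mRNA medians of 0.14 after RACK1 removal and -0.27 after RPLP1 removal and footprint medians of -0.11 and -0.26, the arrangement of the matrix list. Both lists hold Col1a1, Col1a2, Col5a1 and Fbn1, so this likeness is partly built in. Col3a1, Lum, Dcn and Postn were not listed. Of the 10 fibroblast genes, 1 mRNA was called lower after RPLP1 removal (10%, near the 8.67% of all genes). Their footprints were called lower for 2 (20%, against 4.91%). The part of these genes in the matrix values was not tested. The 2 joined primitive endoderm markers had mRNA changes of 1.01 (Gata4) and 0.52 (Gata6) after RACK1 removal and of 0.05 and 0.53 after RPLP1 removal in the authors' deposited tables, none called, and footprint changes of -0.17 and 0.09 after RACK1 removal and 0.26 and 0.08 after RPLP1 removal; their part was not tested either. Germ-layer and primed-state markers (20 genes) had mRNA medians of 0.24 after RACK1 removal and -0.04 after RPLP1 removal, with 3 past the difference test, all higher in RACK1 (15%, against 4.95%). Pluripotency genes (38) had mRNA medians of 0.02 and 0.05, and their 3 genes higher and 1 lower (7.89% and 2.63%) were near the shares of all genes, 4.95% and 3%.

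Cholesterol genes had the highest median mRNA difference between the lines among the 46 lists, 0.38. Replication-dependent histones (39 genes) had the lowest, -0.40, with 0 genes past the mRNA difference test. The 31 joined genes of cholesterol synthesis and SREBP2, the factor that switches on sterol supply, had mRNA medians of 0.09 after RACK1 removal and -0.25 after RPLP1 removal, with 13 past the difference test, all higher in RACK1 (41.9%, against 4.95%). Their footprint medians were -0.01 after RACK1 removal and -0.17 after RPLP1 removal, and the gene-by-gene footprint correlation between the lines, 0.56, was the highest of the 46 lists. The RACK1 footprint median was 0.007 with changes centred on the median of all genes. Dhcr7, the last enzyme of the pathway, had 0.24 after RACK1 removal and fell by 0.51 after RPLP1 removal in the authors' deposited tables (difference 0.75, SE 0.14, adjusted p = 8.61e-05 in the z-test). The sterol reductase Tm7sf2 differed by 1.16 (SE 0.28) and the squalene epoxidase Sqle by 0.47 (SE 0.14). In 41 Wnt pathway genes the mRNA medians were 0.07 after RACK1 removal and -0.29 after RPLP1 removal, with 9 higher in RACK1 (22%), among them the receptor Fzd2 (1.67, SE 0.32). In 25 Notch pathway genes they were 0.05 and -0.31, with 7 higher (28%) and 1 lower (4%), among them the ligands Dll1 (1.42, SE 0.30) and Dll3 (1.67, SE 0.41), while among precise members the RACK1 median was -0.06.

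ATF4 targets, which supply amino acids when ATF4 is induced by stress, had medians below 0 in both lines, except that the RPLP1 footprint median was 0.02 among members with implied SEs below the median in both lines. Over 47 genes the mRNA medians were -0.105 after RACK1 removal and -0.15 after RPLP1 removal and the footprint medians -0.14 and -0.07, and both correlations between the lines were above 0, 0.19 for mRNA and 0.42 for footprints. After RACK1 removal 1 mRNA rose (2.13%, against 0.182% of all genes) and 1 footprint value, that of Pck2, fell (2.13%, against 0.00825%). After RPLP1 removal 15 mRNAs fell (31.9%, against 8.67% of all genes) and 13 footprint values fell (27.7%, against 4.91%). The 2 mRNAs and 2 footprint values that rose after RPLP1 removal (4.26% each) were near the shares of all genes, 5.64% and 3.55%. Chac1, which degrades glutathione, had an mRNA change of -0.23 after RACK1 removal and fell by 1.76 after RPLP1 removal, and its footprints had -0.44 and fell by 1.42, in the authors' deposited tables. Nupr1, a stress-induced chromatin protein, ran the other way in mRNA, with -0.34 after RACK1 removal and a rise of 0.58 after RPLP1 removal, while its footprints had 0.08 and -0.53, in the authors' deposited tables. Nupr1 passed the difference test in mRNA (-0.92, SE 0.25, adjusted p = 0.00968) and in footprints relative to mRNA (1.53, SE 0.33, adjusted p = 0.00579), each in the z-test on the authors' deposited tables.

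Promoters of Chac1 and Nupr1 are shown because both hold TTGCATCA, the composite site that ATF4 and C/EBP factors bind, and yet their mRNAs changed in opposite directions after RPLP1 removal. On either strand the motif was in 10 of the 38 ATF4 targets with a RefSeq promoter window (26.3%; Aars, Atf3, Chac1, Iars, Nupr1, Pycr1, Slc1a4, Tars, Vldlr and Yars) against 0.71% of the 9724 windows. The 250 bases before the start follow, motif in capitals, for Chac1 at chr2:119350992-119351241 (plus strand) and Nupr1 at chr7:126625471-126625720 (minus strand), GRCm38.p6.
Chac1: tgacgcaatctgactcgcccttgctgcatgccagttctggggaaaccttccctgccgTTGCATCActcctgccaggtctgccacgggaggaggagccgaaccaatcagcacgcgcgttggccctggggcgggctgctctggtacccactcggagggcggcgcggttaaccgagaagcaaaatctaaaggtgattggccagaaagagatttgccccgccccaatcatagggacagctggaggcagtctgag
Nupr1: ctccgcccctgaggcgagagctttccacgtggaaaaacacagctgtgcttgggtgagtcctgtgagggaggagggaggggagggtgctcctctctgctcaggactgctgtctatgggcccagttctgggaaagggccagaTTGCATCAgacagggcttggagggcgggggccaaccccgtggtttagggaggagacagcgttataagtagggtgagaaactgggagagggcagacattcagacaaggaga
A motif in a window is a description of these letters and not evidence of binding in these cells.

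Lists of cytosolic ribosomal proteins, other TOP mRNAs, ribosome biogenesis, splicing and mitosis genes had medians below 0 after RACK1 removal and above 0 after RPLP1 removal in both assays, with exceptions: the RACK1 footprint median was 0.07 among precise large-subunit proteins and 0.0012 for ribosome biogenesis under centring. Initiation factors (47 genes), elongation and termination factors (23) and aminoacyl-tRNA synthetases (22) had these signs in both assays as well. Not all lists around translation did: mitochondrial ribosomal proteins (78 genes) had footprint medians of -0.011 and -0.006. Genes that sense or rescue stalled ribosomes (31) had medians above 0 in both lines and both assays, except for RACK1 footprints of precise members (-0.015). Large-subunit ribosomal proteins (49 genes) had mRNA medians of -0.10 after RACK1 removal and 0.07 after RPLP1 removal and footprint medians of -0.03 and 0.07; 77.6% had opposite mRNA signs and 26.5% the same footprint sign. The mRNA difference passed for 11, all lower in RACK1 (22.4%, against 3% of all genes), among them Rpl36a (-0.63, SE 0.15), Rpl17 (-0.48, SE 0.12), Rpl35a (-0.56, SE 0.14) and Rpl38 (-0.57, SE 0.14). Small-subunit proteins (31) had mRNA medians of -0.07 and 0.07, with 4 lower (12.9%) and 1 higher (3.23%), Rps28 (0.62, SE 0.13), which rose by 0.54 after RACK1 removal and had -0.08 after RPLP1 removal in the authors' deposited tables. Other mRNAs with a terminal oligopyrimidine tract (23 genes), the sequence through which mTOR controls ribosome supply, had mRNA medians of -0.115 after RACK1 removal and 0.08 after RPLP1 removal and the most negative mRNA correlation of the 46 lists, -0.67. Many ribosomal protein genes have processed copies, so their values also depend on how reads were shared out.

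Of 70 spliceosome members and splicing regulators, 20 passed the mRNA difference test with RACK1 lower (28.6%, against 3% of all genes) and 2 with RACK1 higher (2.86%, against 4.95%), with mRNA medians of -0.06 after RACK1 removal and 0.12 after RPLP1 removal and footprint medians of -0.05 and 0.09. The regulator Srsf7 had -0.23 after RACK1 removal and rose by 0.42 after RPLP1 removal, and the helicase Ddx5 had -0.21 and rose by 0.36, in mRNA in the authors' deposited tables. Footprints of both had -0.10 after RACK1 removal and rose after RPLP1 removal, by 0.28 for Srsf7 and 0.25 for Ddx5, in the authors' deposited tables. Ribosome biogenesis factors (101 genes) had mRNA medians of -0.02 and 0.10 with 10 lower in RACK1 (9.9%, against 3%), mitosis genes (50) -0.07 and 0.11 with 6 lower (12%), and the proteasome (46) -0.03 and 0.08 with 5 lower (10.9%). Cytosolic heat shock genes (26) had -0.08 and 0.13, with 5 lower (19.2%) and 1 higher (3.85%, against 4.95%). Hspa8, the constitutive Hsp70, had -0.40 after RACK1 removal (FDR 0.0533) and rose by 0.14 after RPLP1 removal in the authors' deposited tables (difference -0.54, SE 0.12).

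Zinc finger genes combined opposite mRNA with like footprints. Over 336 Zfp genes, many of them transcriptional repressors, the mRNA medians were -0.08 after RACK1 removal and 0.15 after RPLP1 removal, and the footprint medians were 0.10 and 0.12. Their mRNA signs were opposite for 66.7% and their footprint signs the same for 69%. The mRNA difference passed for 27 with RACK1 lower (8.04%, against 3% of all genes) and 8 with RACK1 higher (2.38%, against 4.95%). After RPLP1 removal 47 mRNAs rose (14%, against 5.64%) and 5 fell (1.49%, against 8.67%). Zfp609 fell by 0.71 in mRNA after RACK1 removal and had 0.06 after RPLP1 removal, with footprint changes of 0.06 and -0.05, in the authors' deposited tables. Zfp825 had mRNA changes of -0.41 after RACK1 removal and a rise of 0.52 after RPLP1 removal, with footprint changes of 0.18 and a rise of 0.29, in the authors' deposited tables. Clustered zinc finger genes resemble each other closely, so reads may be shared between members.

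The 13 mitochondrially encoded respiratory chain genes were low in mRNA in both lines, with medians of -0.23 after RACK1 removal and -0.13 after RPLP1 removal, and above 0 in footprints, with medians of 0.20 and 0.05. Among precise members the RPLP1 footprint median was -0.09. All 13 had RACK1 footprints above 0 and 9 had RPLP1 footprints above 0. Besides mt-Nd3, mt-Atp8 differed in mRNA (-0.69, SE 0.16), with -0.49 after RACK1 removal and a rise of 0.20 after RPLP1 removal in the authors' deposited tables. Nuclear-encoded respiratory chain genes (79) had mRNA medians of -0.09 after RACK1 removal and -0.0024 after RPLP1 removal, with 9 lower (11.4%, against 3%) and 4 higher (5.06%, near the 4.95% of all genes) in RACK1. In p53 targets (46), which respond to ribosome assembly stress, mRNA medians were above 0 in both lines, 0.05 after RACK1 removal and 0.18 after RPLP1 removal, with 6 lower (13%) and 1 higher (2.17%) in RACK1. Ccng1 had -0.04 after RACK1 removal and rose by 0.50 after RPLP1 removal in mRNA, and its footprints had -0.12 and rose by 0.39, in the authors' deposited tables.

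The removed proteins' own genes did not pass the difference test. Rack1 mRNA changed by -0.15 after RACK1 removal and by -0.04 after RPLP1 removal, and Rplp1 mRNA by 0.06 and -0.14, in the authors' deposited tables, none called; a degron acts on the protein, so these values do not check the removal. Of its stalk partners, Rplp2 mRNA had 0.12 after RACK1 removal and fell by 0.20 after RPLP1 removal, and Rplp0 footprints had 0.00 and fell by 0.38, in the authors' deposited tables. Rplp0 mRNA was called lower after RPLP1 removal as well. Rps26, whose protein is named together with Tir1 in both genotypes, had mRNA changes of -0.25 and 0.07 in the authors' deposited tables. The smallest adjusted p in the z-test among these 5 genes was 0.0581 for the mRNA of Rps26 (difference -0.32, SE 0.11), next to 0.0597 for Rplp2 (0.33, SE 0.12).

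Base composition of the promoter was set beside the pattern, since it differs between gene classes. The GC content of the window correlated at 0.05 with RACK1 mRNA changes and at -0.07 with RPLP1 mRNA changes, and at -0.08 and -0.02 with footprint changes, over 9724 genes. Within 5 groups of genes of like promoter GC, the mRNA correlation between the lines lay between -0.173 and -0.105 and the footprint correlation between 0.20 and 0.27, so both signs were the same in each group.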

How the data were processed

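For each line the authors deposited 1 table of their own comparison of IAA with DMSO, with log2 fold changes per gene in both assays and, for each, an FDR, a p-value adjusted for multiple tests. The aligner, genome build, count model, filters and direction of the ratio were not given in the sources used here; mRNA libraries were made from polyadenylated RNA, per the labels' protocols. Depth is unknown, and no interval covers it.

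Tables were joined on the transcript identifier with Python 3.11.15, pandas 2.3.3, NumPy 2.4.6 and SciPy 1.17.1, leaving out 20 genes with date-converted or repeated symbols. The adjustment was undone to recover each p-value, and the SE is the log2 change divided by the matching normal quantile. RACK1 minus RPLP1 was tested per gene in a two-sided z-test assuming normal, independent errors, adjusted over all 12117 genes (threshold 0.05). The mRNA p-values measure only the spread between the authors' samples, which may be technical. For footprints, and for footprints relative to mRNA, the spread that the p-values measure is unknown. Without per-sample values, no sample pairing or outlier check was made. The procedure was tested on data simulated with normal, independent errors at the implied SEs. Such data cannot show whether those assumptions hold for the authors' count model or for the combined footprint samples. Alternatives were an unadjusted reading of the FDR, a t distribution, centring, precise genes only, another join and looser thresholds. A sterol motif, TCACNCCAC, was added after seeing the data; it was in 1 of 23 cholesterol promoters (Hmgcs1) and in 1.45% of all.

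Members and lists were chosen with earlier results of these data known. Named genes are the 8 per sign and assay with the smallest difference p past the threshold, up to 6 per sign pattern called in both lines, up to 4 per list and the removed proteins with their partners. Protein features were not analysed here, and a few single-gene results that the rule takes are not reported here.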

Additional observations from a re-analysis of the deposited data

Results flagged for a closer look

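The lines are 2 groups under the same contrast, and each result here passed the test of the difference between them. The counts were 600 mRNAs with the RACK1 change higher and 363 with it lower, 3 footprint values higher and 10 lower, and 21 values of footprints relative to mRNA higher and 19 lower.

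In mRNA the RACK1 change exceeded the RPLP1 change by 1.19 for Klf2, 0.94 for Pigs, 1.10 for Nr2f6, 0.82 for Arf6, 0.74 for Utf1, 0.85 for Jund, 1.02 for Egr1 and 1.30 for Nxph4. The difference, RACK1 minus RPLP1, was -2.64 for Kxd1, -2.23 for Lars2, -1.30 for mt-Nd3, -1.57 for Zyg11a, -0.73 for Dnaja1, -1.29 for Mrps18c, -0.79 for Zfp988 and -0.70 for Npm1. Of these 16 genes, Klf2, Nr2f6, Arf6, Kxd1, mt-Nd3, Mrps18c and Npm1 were also called in each line by itself.

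In footprints the difference was 0.74 for Ifrd1, 1.02 for Dll1 and 0.47 for Acsf2. It was -3.25 for Zfp648, -0.52 for Enox1, -0.55 for Erbin, -0.57 for Mat2a, -0.43 for Taok1, -0.39 for Zfp518a, -0.47 for Wsb1 and -0.38 for Chordc1. Dll1 is the 1 gene of the 13 whose mRNA and footprints both differed with RACK1 higher.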

How the results depend on the processing

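No paired analysis was possible because the tables hold no value per sample, and for the same reason no replicate could be left out. With the authors' FDR taken as the p-value, mRNA differences numbered 2 higher and 4 lower in RACK1, footprint differences 0 and 0 (10.5% of genes had an unadjusted p below 0.05 in the z-test with the implied SE), and relative differences 2 and 0, because the SEs are then the largest the tables allow. Adjusted p below 0.1 gave 877 mRNAs higher and 628 lower in RACK1, and 14 footprint values higher and 28 lower. Below 0.2 the counts were 1365 and 1086 in mRNA and 28 and 53 in footprints. Among precise genes, 375 of 5425 mRNAs were higher and 354 lower in RACK1, and 10 and 11 of 4037 relative values were higher and lower, with fewer genes tested. The t distribution gave 12 footprint values higher and 10 lower in RACK1, and centring gave 6 higher. An error correlation of 0.5 between assays gave 336 relative values higher and 466 lower. Every SE is then smaller while the differences stay the same, so more genes pass. Pearson's correlation of footprints between the lines was 0.168, against a Spearman value of 0.23; for mRNA it was -0.11 against -0.15. No named gene's difference and neither correlation between the lines changed sign, but the balance of counts turned. Lower outnumbered higher for mRNA with the FDR as p, and for relative values with correlated errors and, by 11 to 10, among precise genes. For footprints, higher outnumbered lower under the t distribution. Of 157 single-gene differences, 152 kept their call under centring, and Cdt1, Nbas, Otud1, Scd1 and Tomm40 lost it. Of 188 list medians 179 moved by less than the spread under centring. Among precise genes 132 did so and 46 moved by more; the other 10 had no value there. The sign of a list median changed for 7 under centring and for 18 among precise genes.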
